A study of Homo sapiens with 12 samples.

Results

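The unfolded protein response of the endoplasmic reticulum (ER) was examined through 10 genes, chosen by name from the 26485 genes of the deposited tables. They are the stress sensors ATF6, ERN1 and EIF2AK3, the transcription factor XBP1, the chaperones and folding factors HSPA5, HSP90B1, PDIA4, SDF2L1 and DNAJB9, and HERPUD1, a component of ER-associated degradation. The rule that chose them names genes and uses no measured value, although earlier results of these data were known when it was written. All 10 passed the filter on low counts. The samples were cultures of OVCAR8, an ovarian cancer cell line of human origin that the study describes as Ras-mutant, grown in RPMI medium with serum. Cells received vehicle (control), EC359 at 150 nM, trametinib at 100 nM, or both agents together (combination), and RNA was taken after 7 h. EC359 is an inhibitor of LIFR, the receptor of leukemia inhibitory factor, and trametinib inhibits the kinase MEK of the MAPK pathway. Each of the 4 groups has 3 libraries of polyadenylated RNA, 12 in all. The labels do not say whether the 3 libraries of a group came from separate cultures, so p-values measure the spread between these libraries only. A single cell line, a single time point and a single dose of each agent were profiled.

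Proteins that enter the ER fold with the help of chaperones such as HSPA5 (BiP) and HSP90B1 (GRP94). When unfolded proteins accumulate, 3 sensors in the ER membrane respond. EIF2AK3 (PERK) phosphorylates eIF2alpha, which lowers general translation and favors that of ATF4. ERN1 (IRE1alpha) removes a short intron from XBP1 mRNA outside the nucleus, and the new reading frame encodes an active transcription factor. ATF6 moves to the Golgi, where proteases release its cytosolic part as a transcription factor. Spliced XBP1 and cleaved ATF6 raise transcription of chaperones, folding enzymes and degradation factors, many through the ER stress response elements in their promoters. The pathway is therefore controlled in large part by phosphorylation, splicing and cleavage, which gene counts do not measure.

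Promoter sequences are shown for the members that hold such an element, since cleaved ATF6 and spliced XBP1 are known to act through them. The windows are those of RefSeq on GRCh38.p14, from 250 bases before to 50 bases after a start site. All 10 members were matched, with 12 windows. The searched forms were ERSE, which is CCAAT and CCACG with 9 bases between them, ERSE-II, which is ATTGG and CCACG with 1 base between them, and TGACGTGG, a site bound by ATF6 and XBP1 in vitro, each on both strands. The capitals mark the element in the 200 bases before the start site of each of 5 genes, on the strand of the gene. These segments lie at chr9:125241344-125241543 (HSPA5, minus strand), chr12:103930210-103930409 (HSP90B1, plus strand), chr22:28800570-28800769 (XBP1, minus strand), chr16:56931942-56932141 (HERPUD1, plus strand) and chr22:21642102-21642301 (SDF2L1, plus strand).
HSPA5: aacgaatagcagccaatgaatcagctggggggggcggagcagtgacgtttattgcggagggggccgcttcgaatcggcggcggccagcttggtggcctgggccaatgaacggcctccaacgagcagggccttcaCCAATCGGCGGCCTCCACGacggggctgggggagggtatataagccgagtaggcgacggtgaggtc
HSP90B1: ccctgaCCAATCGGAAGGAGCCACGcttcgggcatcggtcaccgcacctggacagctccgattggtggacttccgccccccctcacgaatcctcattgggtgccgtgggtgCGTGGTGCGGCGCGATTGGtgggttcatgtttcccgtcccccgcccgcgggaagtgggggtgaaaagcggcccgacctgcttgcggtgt
XBP1: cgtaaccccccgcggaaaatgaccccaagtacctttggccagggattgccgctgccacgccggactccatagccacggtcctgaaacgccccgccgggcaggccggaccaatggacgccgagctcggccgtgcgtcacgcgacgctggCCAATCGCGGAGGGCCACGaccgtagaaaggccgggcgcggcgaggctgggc
HERPUD1: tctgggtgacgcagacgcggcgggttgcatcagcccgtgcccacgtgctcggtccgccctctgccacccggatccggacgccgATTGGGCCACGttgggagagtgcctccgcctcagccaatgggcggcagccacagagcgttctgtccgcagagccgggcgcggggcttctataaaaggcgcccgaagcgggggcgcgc
SDF2L1: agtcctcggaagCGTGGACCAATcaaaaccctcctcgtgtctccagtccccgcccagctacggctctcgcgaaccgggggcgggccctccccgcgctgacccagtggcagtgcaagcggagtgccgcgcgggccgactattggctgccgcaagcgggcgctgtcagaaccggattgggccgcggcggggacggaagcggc

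ERSE was found in HSPA5 (66 to 48 bases before the start), in HSP90B1 at both 194 to 176 bases on the strand of the gene and 89 to 71 bases on the opposite strand, and in 1 of the windows of XBP1 (52 to 34 bases). ERSE-II was found in HERPUD1 (117 to 107 bases) and, on the opposite strand, in SDF2L1 (188 to 178 bases). The windows of ATF6, ERN1, EIF2AK3, DNAJB9 and PDIA4 held neither form, which says only that these letters are not in these windows. TGACGTGG was in none of the members' windows. Among all 35116 promoter windows of the same length, 27 (0.0769%) held ERSE, 19 (0.0541%) held ERSE-II and 256 (0.729%) held TGACGTGG. Counted by gene, ERSE was in 25 (0.0916%), ERSE-II in 19 (0.0696%) and TGACGTGG in 253 (0.927%) of 27305 genes. By the same count, 3 of the 10 members held ERSE and 2 held ERSE-II. Of 22 other ER chaperone and folding genes with a window, CALR, CANX, PDIA6, ERO1B and CRELD2 held ERSE, and HYOU1 held ERSE-II. TXNDC5, TXNDC11, HYOU1 and DNAJC10 held TGACGTGG. Among lists described further below, TGACGTGG was in 4 of 19 translocon and early secretory genes and 2 of 18 ER-associated degradation genes. It was in 0 of 13 genes of the eIF2alpha branch and 0 of 12 other sensors and ER-bound factors.

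**Figure D1:**
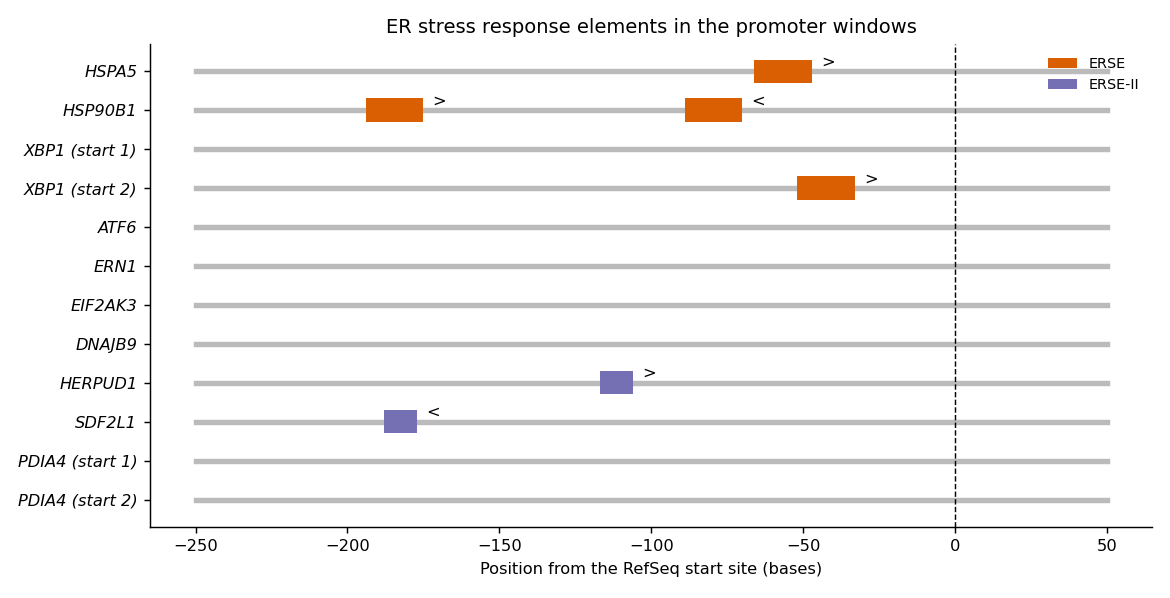
Positions of ERSE (orange) and ERSE-II (purple) in the 12 promoter windows of the 10 genes, in bases from the RefSeq start site (dashed line); the arrow gives the strand relative to the gene. HSPA5, HSP90B1 and XBP1 carry ERSE, with 2 copies in HSP90B1, and HERPUD1 and SDF2L1 carry ERSE-II.

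The XBP1 intron that ERN1 removes is shown because it limits what the XBP1 count can tell. It is 26 bases long and lies within the coding sequence on chromosome 22, annotated in GENCODE 29 at 28796124 to 28796149 and, in another transcript, 2 bases away, at 28796122 to 28796147, both on the minus strand of GRCh38. The removed bases of the first of these placements are in capitals, with 20 bases on each side.
XBP1 intron: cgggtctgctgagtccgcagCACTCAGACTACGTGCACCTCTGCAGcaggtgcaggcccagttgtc
Because an exon of the deposited annotation covers this stretch, the XBP1 count pools the spliced and the unspliced mRNA, and splicing by ERN1 was not analysed here.

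Total counts per library ranged from 24790392 to 32467283, and 14865 genes were tested. Values below are CPM, counts scaled to library sizes adjusted by TMM factors, which were 0.947 to 0.952 in the 6 libraries that received EC359 and 1.04 to 1.06 in the others. Scaling by total counts alone shifted the median log2 fold change of all genes to -0.15 for EC359 against control and to -0.14 for the combination, against -0.01 for both after TMM, and to -0.17 and -0.16 when EC359 and the combination were compared to trametinib. Changes of a similar size to this shift depend on the scaling. As a check of the labels, 5 genes of MEK and ERK output were read (DUSP6, SPRY2, SPRY4, ETV4, ETV5). With trametinib 5 of 5 were lower, with a median log2 fold change of -4.15, against 15.2% of all genes. With the combination 5 of 5 were lower (median -1.64), against 34.7% of all genes. With EC359 5 of 5 were higher (median 1.26), against 30.8% of all genes. PAX8, a marker of Mullerian epithelium, was at 73.7 to 122 CPM and the keratins KRT7, KRT8 and KRT18 were at 780.1 to 1962 CPM, while WT1 was at 2.29 to 4.68 CPM and MUC16 was at 0.04 CPM or less. Among markers of blood, endothelial and stromal cells, PTPRC, CD3E and DCN were at 0 in every library. The stromal collagen gene COL1A1 was at 415 to 435 CPM in control, 219 to 232 with EC359, 513 to 525 with trametinib and 314 to 335 with the combination, and its part in the results was not tested.

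In control cells the members spanned a wide range of levels per length of mRNA. HSP90B1 stood at 311 ± 5.30 CPM per kb (SD, n = 3), above 98.8% of the genes tested, and HSPA5 at 216 ± 3.08 CPM per kb, above 98.1%. PDIA4 followed at 92.2 ± 1.31 CPM per kb, and XBP1, SDF2L1 and HERPUD1 lay close together at 34.0, 30.7 and 25.3 CPM per kb. The sensors were far lower, at 6.08 CPM per kb for ATF6, 3.44 for EIF2AK3 and 2.01 for ERN1. DNAJB9 was the lowest member at 1.48 ± 0.191 CPM per kb, above 25.5% of the genes tested. The abundant ER chaperones therefore exceeded the sensors and DNAJB9 by a wide margin before any treatment. Of the deposited counts, 100% of those of HSP90B1 and 83.3% of those of HSPA5 over the 12 libraries were not whole, so that fragments were shared with other loci or genes by fractions, against 0% for ERN1 and 8.33% for EIF2AK3 and SDF2L1. These percentages count libraries with any fractional value and not the fragments that were shared. How far shared fragments affect the levels of HSP90B1 and HSPA5 was not measured.

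EIF2AK3, the sensor that phosphorylates eIF2alpha (chromosome 2 from 88556741 to 88627576 in hg38), rose with EC359 and further with the combination. Its level was 15.4, 16.1 and 16.5 CPM in the control libraries, 38.0, 37.5 and 33.1 with EC359, 18.5, 16.4 and 17.9 with trametinib, and 57.8, 55.7 and 51.6 with the combination. All EC359 libraries lay above all control libraries, and all combination libraries above all EC359 libraries, whereas trametinib and control overlapped. The log2 fold change against control was 1.18 with EC359 (SE 0.06, edgeR adjusted p = 1.05e-24), 1.78 with the combination (SE 0.06, edgeR adjusted p = 5.92e-34) and 0.14 with trametinib (95% CI 0.02 to 0.27, edgeR adjusted p = 0.0887). The difference with trametinib passed with total counts alone (0.17, edgeR adjusted p = 0.041) and without trametinib replicate 2 (0.19, edgeR adjusted p = 0.0401). The combination exceeded EC359 by 0.60 on the log2 scale (edgeR adjusted p = 1.45e-14). In a bulk sample, more RNA per cell and a larger share of cells with the RNA cannot be told apart, here and in the genes that follow.

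ERN1, the sensor that splices XBP1 mRNA (chromosome 17 from 64043030 to 64130142), had another order of levels. It was at 7.68, 8.62 and 7.83 CPM in control, 18.4, 17.3 and 16.7 with EC359, 4.03, 4.29 and 4.32 with trametinib, and 7.50, 7.60 and 6.95 with the combination. EC359 libraries were the highest and trametinib libraries the lowest, with no overlap between any groups. ERN1 rose 2.17-fold with EC359 (log2 fold change 1.12, SE 0.09, edgeR adjusted p = 1.21e-16) and fell by 0.93 on the log2 scale with trametinib (SE 0.10, edgeR adjusted p = 1.39e-11). With both agents it differed from control by -0.13 (95% CI -0.32 to 0.06, edgeR adjusted p = 0.214), although its libraries lay below those of control, and with scaling by total counts alone the difference was -0.27 with an edgeR adjusted p of 0.00911. Compared to EC359 alone, the combination was lower by 1.25 on the log2 scale, the largest difference of any member between these groups (edgeR adjusted p = 9.74e-18). ERN1 and EIF2AK3 thus moved in opposite directions when trametinib was added to EC359.

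ATF6, the sensor that is cleaved in the Golgi (chromosome 1 from 161766244 to 161964070), varied little. Its level was 46.2, 44.7 and 46.7 CPM in control, 46.5, 47.8 and 47.4 with EC359, 48.7, 50.6 and 49.0 with trametinib, and 45.7, 46.5 and 46.7 with the combination. Only the trametinib libraries stood apart from control, and the log2 fold change of 0.11 was small (SE 0.04, edgeR adjusted p = 0.0423). That call was lost with DESeq2 (adjusted p = 0.063), without the filter on low counts, and without any 1 of several libraries, among them control replicate 2 (edgeR adjusted p = 0.171). The differences from control were 0.04 with EC359 (95% CI -0.04 to 0.13) and 0.01 with the combination (95% CI -0.07 to 0.10). Both turned negative with scaling by total counts alone, at -0.09 (edgeR adjusted p = 0.0471) and -0.13 (edgeR adjusted p = 0.00594).

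XBP1, the transcription factor downstream of ERN1 (chromosome 22 from 28794560 to 28800572), rose with EC359 and less so with the combination. The control libraries were at 61.9, 61.2 and 62.6 CPM, the EC359 libraries at 107, 109 and 113, the trametinib libraries at 60.6, 56.6 and 60.2, and the combination libraries at 92.0, 91.1 and 93.0. The order was trametinib, control, combination and EC359, and no libraries of neighboring groups overlapped. The increase was 1.77-fold with EC359 (log2 fold change 0.83, SE 0.03, edgeR adjusted p = 5.37e-29) and 1.49-fold with the combination (0.57, SE 0.03, edgeR adjusted p = 1.19e-21). Trametinib alone gave -0.06 (95% CI -0.14 to 0.01, edgeR adjusted p = 0.188). Adding trametinib to EC359 lowered XBP1 by 0.26 on the log2 scale (edgeR adjusted p = 2.81e-09). XBP1 therefore shared with ERN1 a lower level in the combination than with EC359 alone, while remaining above control.

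HSPA5, the chaperone BiP that binds the luminal parts of the sensors (chromosome 9 from 125234848 to 125241387), rose modestly. It was at 870.3, 857 and 846 CPM in control, 990.3, 979.8 and 982 with EC359, 843, 869 and 842 with trametinib, and 1074, 1067 and 1049.5 with the combination. Control and trametinib overlapped, and the EC359 and combination libraries each stood apart from all others. The rise was 14.7% with EC359 (log2 fold change 0.20, SE 0.02, edgeR adjusted p = 9.01e-12) and 24.0% with the combination (0.31, SE 0.02, edgeR adjusted p = 4.06e-19). The combination was 8.11% above EC359 alone (edgeR adjusted p = 1.51e-05). With scaling by total counts alone, the log2 fold changes were 0.06 and 0.17, so the size of this rise depends on the scaling.

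HSP90B1, the ER paralog of HSP90 (chromosome 12 from 103930334 to 103947930), did not pass the test in any comparison. The libraries were at 909, 881 and 884 CPM in control, 882, 901 and 886 with EC359, 873, 864 and 887 with trametinib, and 902, 906 and 870.1 with the combination, and all 4 groups overlapped. The log2 difference from control was -0.00 with EC359 (95% CI -0.05 to 0.04) and 0.00 with the combination (95% CI -0.04 to 0.05). These intervals leave out the log2 fold changes of HSPA5 in the same cells. Both genes hold ERSE before the start site. With total counts alone, HSP90B1 was lower by 0.14 on the log2 scale in both (edgeR adjusted p = 4.04e-07 and 3.1e-07), about the shift of all genes under that scaling.

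PDIA4, a disulfide isomerase with an ER retention signal (chromosome 7 from 149003062 to 149028690), fell with each treatment. Its level was 269, 276 and 272 CPM in control, 244, 226 and 232 with EC359, 259, 259 and 256 with trametinib, and 198, 198 and 196 with the combination. No groups overlapped, and each neighboring pair in the order combination, EC359, trametinib and control passed the test. PDIA4 fell by 14.1% with EC359 (edgeR adjusted p = 8.15e-11), fell by 5.28% with trametinib (edgeR adjusted p = 0.015) and fell by 27.6% with the combination (edgeR adjusted p = 4.19e-23). The small decrease with trametinib did not pass with total counts alone (edgeR adjusted p = 0.114), nor without control replicate 2 (0.0875) or trametinib replicate 3 (0.0573).

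SDF2L1, an ER protein that works with HSPA5 and its DnaJ partners (chromosome 22 from 21642253 to 21644299), was also lower. It was at 27.6, 26.6 and 26.2 CPM in control, 21.0, 24.2 and 22.8 with EC359, 22.3, 21.9 and 24.8 with trametinib, and 18.8, 21.9 and 21.8 with the combination. Every treated library lay below every control library. The EC359 libraries overlapped those of both other treatments, and the combination libraries lay just below those of trametinib. The log2 fold changes were -0.24 with EC359 (edgeR adjusted p = 8.2e-04), -0.22 with trametinib (edgeR adjusted p = 0.00391) and -0.36 with the combination (edgeR adjusted p = 1.15e-06). The combination differed from EC359 by -0.12 (95% CI -0.25 to 0.01, edgeR adjusted p = 0.112), a difference that passed without EC359 replicate 1 (edgeR adjusted p = 0.0327).

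DNAJB9 (ERdj4), a DnaJ partner of HSPA5 that also restrains ERN1 (chromosome 7 from 108569745 to 108574850), had the largest rise of the members. It was at 3.25, 4.22 and 3.80 CPM in control, 15.0, 15.4 and 13.9 with EC359, 2.65, 3.84 and 3.47 with trametinib, and 15.0, 16.5 and 13.1 with the combination. The libraries with EC359, alone or combined, were all several times above those without it. The log2 fold change was 1.97 with EC359 (SE 0.11, edgeR adjusted p = 1.8e-21) and 1.98 with the combination (SE 0.11, edgeR adjusted p = 8.12e-22), increases of 3.92-fold and 3.95-fold. These rest on 91 to 133 counts per library in control and on 348 to 458 in the 6 libraries with EC359. The combination differed from EC359 alone by 0.01 (95% CI -0.19 to 0.21), and trametinib from control by -0.19 (95% CI -0.44 to 0.06).

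HERPUD1, an ER membrane protein that helps to assemble the degradation complex (chromosome 16 from 56932090 to 56943881), showed the smallest adjusted p-values of the members with EC359 and with the combination. Its level was 46.7, 51.0 and 47.8 CPM in control, 114, 110.5 and 111 with EC359, 46.5, 48.7 and 50.6 with trametinib, and 125, 122 and 123 with the combination. The groups with EC359 stood above those without it, and the combination above EC359 alone. HERPUD1 rose 2.30-fold with EC359 (log2 fold change 1.20, SE 0.04, edgeR adjusted p = 1.67e-35) and 2.53-fold with the combination (1.34, SE 0.04, edgeR adjusted p = 3.78e-38). With trametinib the log2 difference from control was 0.00 (95% CI -0.08 to 0.08). The combination exceeded EC359 by 0.14 on the log2 scale (edgeR adjusted p = 3.87e-04).

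**Figure D2:**
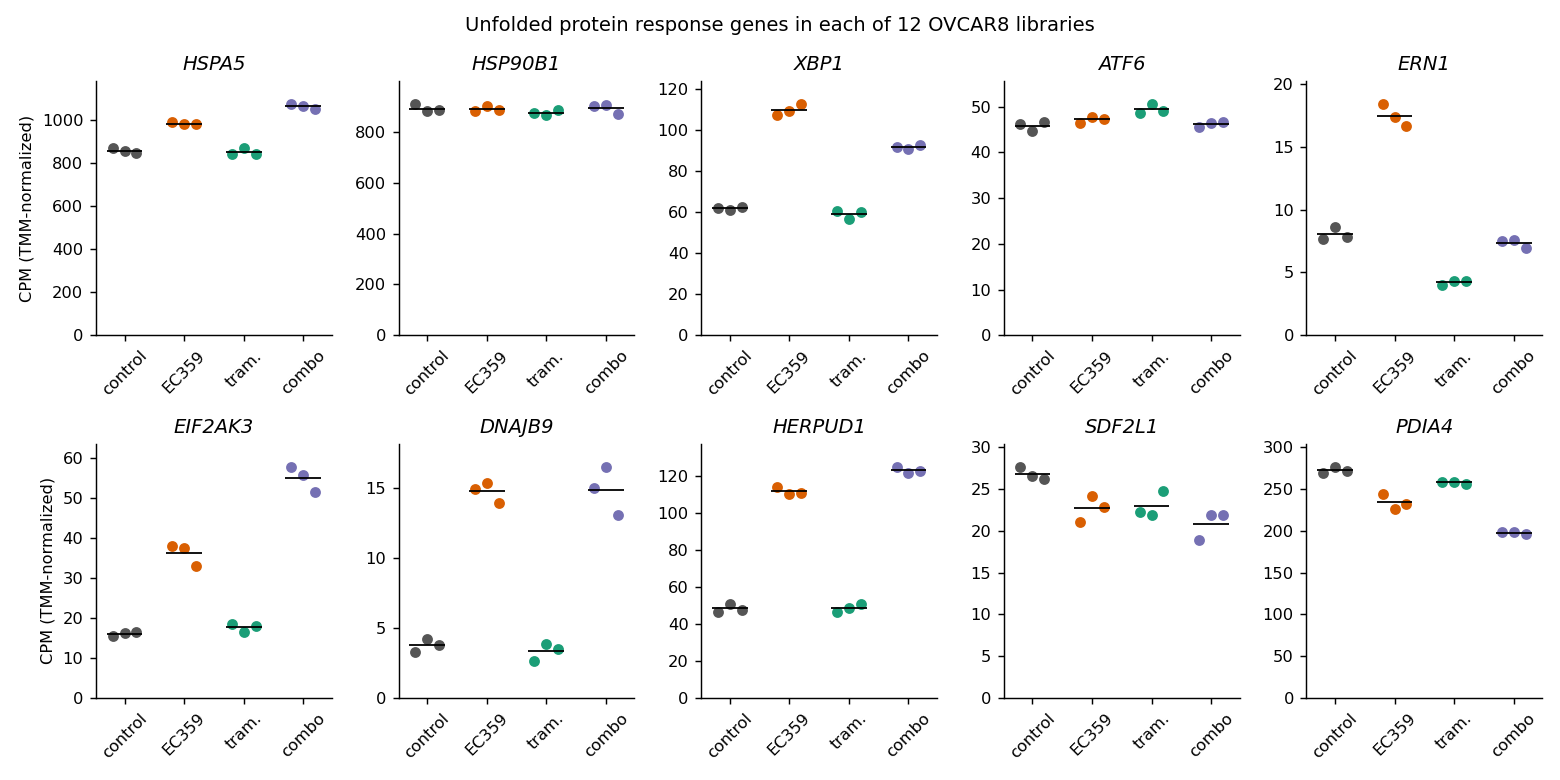
Level of each of the 10 genes in every library, in CPM after TMM scaling on a linear axis from 0; points are the 3 libraries of a group and black lines the group means ("tram." is trametinib, "combo" the combination). EIF2AK3, DNAJB9, HERPUD1 and XBP1 are higher in both groups with EC359, ERN1 with EC359 alone, and PDIA4 and SDF2L1 are lower in each treated group.

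Compared to control, EC359 raised 6 of the 10 members and lowered 2, against 30.8% of all genes tested that were higher and 30.3% that were lower at an adjusted p under 0.05. ERN1, EIF2AK3, DNAJB9 and HERPUD1 changed by at least 2-fold, a size reached by 6.98% of all genes. The median log2 fold change of the members was 0.51, against -0.01 over all genes. Trametinib alone raised ATF6 and lowered ERN1, SDF2L1 and PDIA4, so that 1 member was higher and 3 were lower, against 13.0% and 15.2% of all genes. No member reached 2-fold with trametinib, as 1.43% of all genes did, and the median of the members was -0.05. The combination raised 5 members and lowered 2, against 35.0% and 34.7% of all genes, with a median of 0.16. EIF2AK3, DNAJB9 and HERPUD1 were at least 2-fold higher, against 13.1% of all genes changed that far. The share of higher members lay above that of all genes with EC359 and with the combination, and the share of lower members below it, with no test of the list. The comparisons with control share the same control libraries, so their results are not independent of each other. After TMM, higher calls made up 50.4% of all calls for EC359, 46.2% for trametinib and 50.2% for the combination, and with total counts alone they made up 31.8%, 58.4% and 36.0%.

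Direct comparison of the combination with EC359 found EIF2AK3, HERPUD1 and HSPA5 higher and ERN1, XBP1 and PDIA4 lower, 3 members each way, against 24.1% and 25.2% of all genes. ERN1 alone among the members reached 2-fold. Compared to trametinib, the combination was higher in 6 members (HSPA5, XBP1, ERN1, EIF2AK3, DNAJB9 and HERPUD1) and lower in 3, against 35.3% and 32.9% of all genes. The largest of these differences were 2.17 on the log2 scale for DNAJB9, 1.64 for EIF2AK3 and 1.34 for HERPUD1. The decreases of ATF6 (-0.09, edgeR adjusted p = 0.0419) and SDF2L1 (-0.14, edgeR adjusted p = 0.0489) were lost with DESeq2 (adjusted p = 0.0683 and 0.0911), and only PDIA4 (-0.39) then remained lower. Without trametinib replicate 3 or combination replicate 1, the difference of SDF2L1 was -0.08 and -0.07. EC359 was higher than trametinib in the same 6 members and lower in PDIA4, against 31.6% and 31.2% of all genes, with log2 differences of 2.05 for ERN1 and 2.16 for DNAJB9. Higher calls made up 51.7% of the calls between the combination and trametinib and 50.4% of those between EC359 and trametinib, but 33.1% and 29.4% with total counts alone.

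Whether the effects of the agents added up was tested by the interaction, the log2 fold change of the combination minus those of EC359 and of trametinib. The interaction was above 0 for EIF2AK3, HERPUD1 and HSPA5 and below 0 for XBP1 and PDIA4, against 14.4% of all genes above and 15.9% below. EIF2AK3 rose by 1.78 against a sum of 1.32, a difference of 0.46 (SE 0.08, edgeR adjusted p = 1.21e-05). For HSPA5 the combination gave 0.31 against a sum of 0.19 (interaction 0.12, SE 0.03, edgeR adjusted p = 0.00125). XBP1 rose by 0.57 against a sum of 0.76 (interaction -0.19, SE 0.05, edgeR adjusted p = 0.00174). PDIA4 changed by -0.47 against a sum of -0.30 (interaction -0.17, SE 0.04, edgeR adjusted p = 2.84e-04). The interaction of HERPUD1 was 0.14 (SE 0.05, edgeR adjusted p = 0.0348) and was lost with DESeq2 (adjusted p = 0.0781), with total counts alone (edgeR adjusted p = 0.105) and without control replicate 2 (edgeR adjusted p = 0.174), among other libraries. For ERN1 the interaction was -0.31 (95% CI -0.58 to -0.04, edgeR adjusted p = 0.0703) and for ATF6 it was -0.14 (95% CI -0.25 to -0.02, edgeR adjusted p = 0.072), and both passed with total counts alone. The intervals were -0.12 to 0.52 for DNAJB9 and -0.08 to 0.28 for SDF2L1. Of the interaction calls over all genes, 47.6% were above 0 after TMM and 37.9% with total counts alone.

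**Figure D3:**
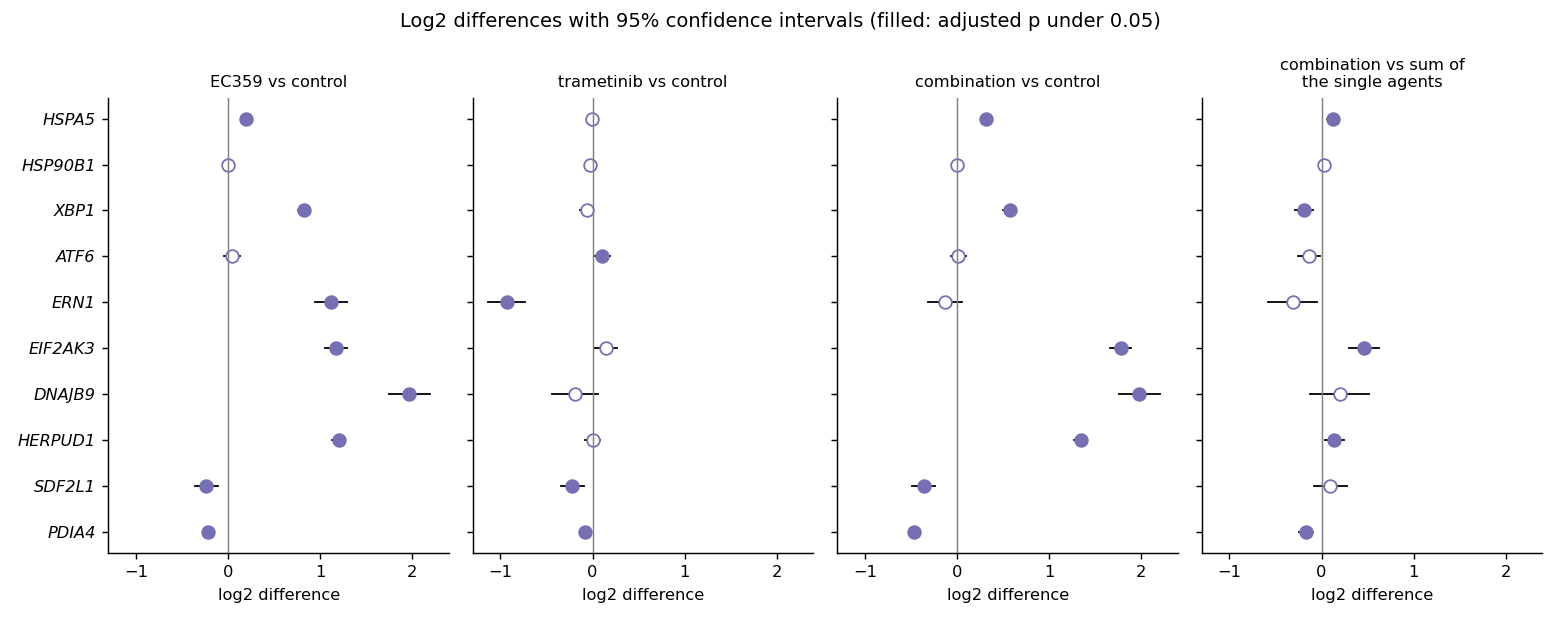
Log2 differences of the 10 genes for each treatment against control and, in the right panel, for the combination against the summed log2 fold changes of EC359 and trametinib (the interaction); lines are 95% confidence intervals and filled points passed an adjusted p under 0.05 in edgeR. DNAJB9 stands near 2 in both comparisons with EC359, EIF2AK3 at 1.18 and 1.78, and ERN1 at 1.12 with EC359 and -0.93 with trametinib.

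Setting the promoter elements beside these values, the 5 genes with an element did not move together. With EC359, HSPA5, XBP1 and HERPUD1 were higher, HSP90B1 had a log2 difference of -0.00 and SDF2L1 was lower. Of the 5 genes without a match, ERN1, EIF2AK3 and DNAJB9 were higher, PDIA4 was lower and ATF6 did not pass.

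Other genes of the pathway were taken from lists by role, none of whose genes is a member. Their counts are to be read against the shares of all genes, which were 30.8% higher and 30.3% lower with EC359, 13.0% and 15.2% with trametinib, 35.0% and 34.7% with the combination, and 14.4% above and 15.9% below 0 in the interaction. List counts with total counts alone are to be read against the genes called under that scaling. With EC359 these were 3115 higher and 6677 lower of 14865 tested. With the combination they were 3838 higher and 6811 lower. The branch below EIF2AK3 and eIF2alpha changed most. Of its 13 tested genes, 12 were higher and 1 was lower with EC359, with 8 at least 2-fold higher and a median log2 fold change of 1.15. With the combination, 12 were again higher and 1 was lower, 7 of them by at least 2-fold, with a median of 1.03. With trametinib 5 were higher and 2 lower, with a median of 0.04. ATF3, a stress-induced transcription factor, had log2 fold changes of 4.70 with EC359 and 5.79 with the combination, and PPP1R15A (GADD34), which directs the removal of the phosphate from eIF2alpha, 2.70 and 2.79. EIF2S1, which encodes eIF2alpha itself, was the lower gene, at -0.19 and -0.36. With trametinib ATF3 rose by 1.29, the single gene of the branch to reach 2-fold, although it stayed under 10 CPM at 7.25 to 8.46 CPM. PPP1R15A fell by 0.30 on the log2 scale, and DDIT3 (CHOP) and ASNS (asparagine synthetase) rose by 0.47 and 0.19 with trametinib. The interaction was above 0 for 4 genes of this branch, among them SESN2 (0.56) and PPP1R15B (0.41), and below 0 for 6, among them CHAC1 (-1.18) and DDIT4 (-1.09). Several of these genes also respond to stresses other than that of the ER.

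ER-associated degradation, the list nearest to HERPUD1 in role, had 22 tested genes. With EC359 13 were higher and 3 were lower, and with total counts alone 7 were higher and 6 lower. The median log2 fold change was 0.15, and none reached 2-fold. MARCH6, an ER ubiquitin ligase, rose by 0.65 and EDEM1, which acts on misfolded glycoproteins, by 0.54. EDEM2 fell by 0.33 and the ubiquitin-conjugating enzyme UBE2G2 by 0.30. With the combination 12 were higher and 4 lower, with VCP, the ATPase that draws proteins out of the membrane, at 0.59 and MARCH6 at 0.74. With trametinib 5 were higher and 4 lower, in a range from -0.13 for EDEM1 to 0.16 for UBE2J1. DERL3 did not pass the filter on low counts. The interaction was above 0 for 5 genes and below 0 for 5.

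The other ER chaperones and folding enzymes, the group that HSPA5 and HSP90B1 belong to by function, had no gene that reached 2-fold with any treatment. With EC359, 6 of 24 were higher and 7 lower, near the shares of all genes (30.8% and 30.3%), with a median of 0.00, and with total counts alone 4 were higher and 16 lower. ERO1A, the oxidase that serves disulfide formation, rose by 0.39 and DNAJC3, an inhibitor of EIF2AK3, by 0.29, while CNPY2 fell by 0.38 and CRELD2 by 0.32. With the combination 12 were higher and 7 lower, but 5 were higher and 12 lower with total counts alone. MANF, a secreted ER stress protein, fell by 0.42 with the combination, and ERP29 rose by 0.33. With trametinib 1 was higher (TXNDC11, 0.23) and 5 were lower, with DNAJB11 at -0.20. The interaction was above 0 for 10, with DNAJB11 at 0.35, and below 0 for 2, TXNDC11 (-0.37) and ERO1A (-0.28).

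In the translocon and early secretory pathway, 9 of 24 genes were higher and 10 lower with EC359 (30.8% and 30.3% of all genes), and 12 were higher and 7 lower with the combination (35.0% and 34.7% of all genes). With total counts alone the split was 2 higher and 16 lower for EC359, and 6 higher and 12 lower for the combination. SEC24D, a coat protein of vesicles that leave the ER, was at 0.66 with EC359 and 0.64 with the combination. SSR3, a subunit of the translocon-associated complex, fell by 0.38 with trametinib and by 0.54 with the combination, and KDELR3, which returns chaperones to the ER, fell by 0.39 with EC359. The interaction was above 0 for 9 genes, with SRPRB at 0.37, and below 0 for SEC23B (-0.18).

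Of 12 other sensors, proteases and ER-bound factors, 3 were higher and 3 lower with EC359, 3 were higher with trametinib, and 5 were higher and 4 lower with the combination. With total counts alone, 2 were higher and 5 lower with EC359, and 3 were higher and 5 lower with the combination. CREB3L1, an ER-bound transcription factor related to ATF6, rose by 0.81 with trametinib and by 0.44 with the combination, but fell by 0.25 with EC359. MBTPS1 and MBTPS2, the Golgi proteases that cleave ATF6, fell by 0.39 and 0.52 on the log2 scale with the combination. TRAF2, an adaptor of ERN1, rose by 0.37 with EC359. The changes in all these lists other than the eIF2alpha branch were therefore smaller than those of EIF2AK3, ERN1, DNAJB9 and HERPUD1 with EC359.

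**Figure D4:**
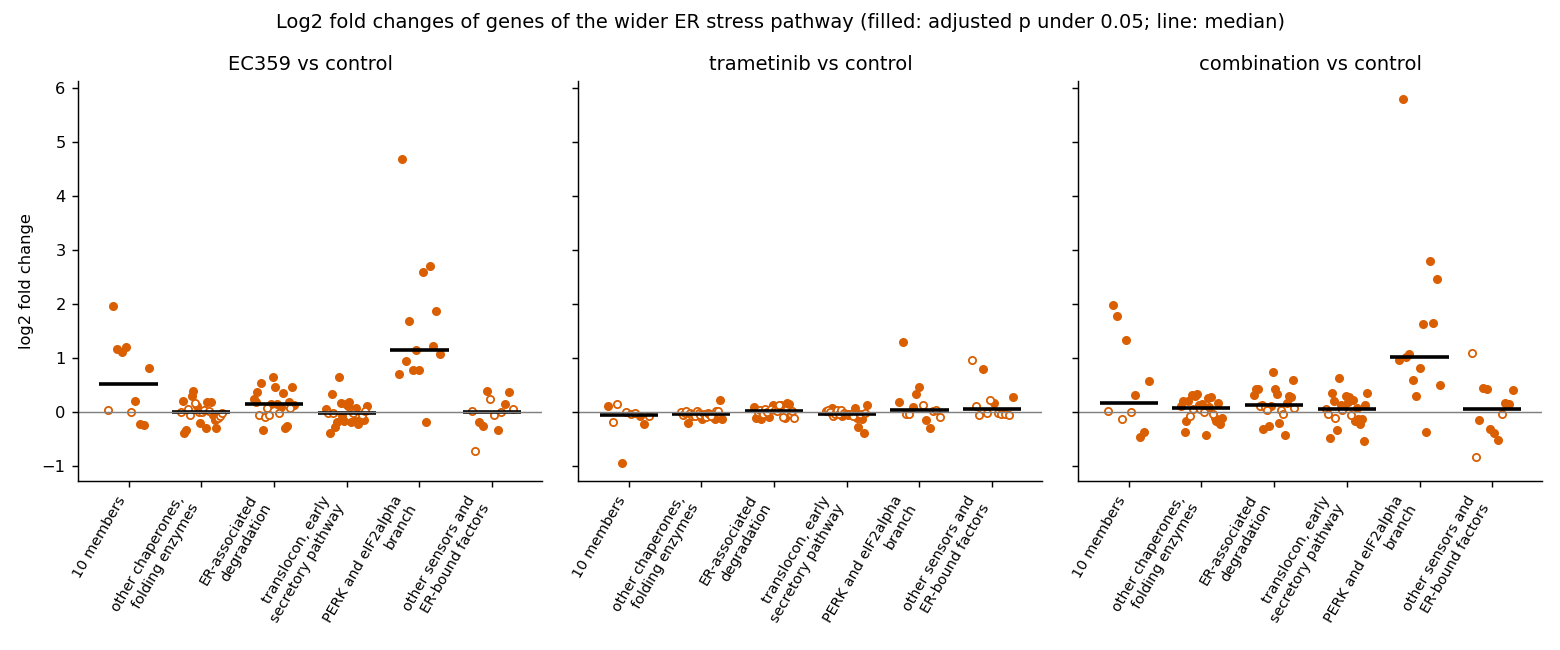
Log2 fold change of every tested gene of the 10 members and of 5 lists of the wider ER stress pathway, for each treatment against control; filled points passed an adjusted p under 0.05 in edgeR and black lines are medians. The PERK and eIF2alpha branch has medians of 1.15 with EC359 and 1.03 with the combination, and the 10 members have 0.51 and 0.16. In these comparisons the medians of the other lists lie between -0.02 and 0.15, with single genes farther from 0.

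The 5 members that were higher both with EC359 and with the combination were compared with each other across the 12 libraries. Because those rises chose the set, its high correlations are not a separate result. As a description only, since the libraries share the treatments, the 10 pairs among HSPA5, XBP1, EIF2AK3, DNAJB9 and HERPUD1 had a Pearson's r of log2 CPM from 0.844 to 0.988. The closest pairs were DNAJB9 with HERPUD1 (0.988) and HSPA5 with EIF2AK3 (0.982). ERN1 correlated most with XBP1 (0.801) and less with EIF2AK3 (0.422). PDIA4 ran against EIF2AK3 (-0.953) and HSPA5 (-0.939). Among 9404 genes with at least 10 CPM on average, those most like HSPA5 over the 12 libraries were PCBP2 (r = 0.996), RB1 (0.995), EFNB2 (0.995), TM4SF1 (0.994) and SLC30A1 (0.992). EIF2AK3 ranked 106 in that order, HERPUD1 386, XBP1 2202, HSP90B1 4283, ATF6 5740, SDF2L1 6758 and PDIA4 8639. DNAJB9 and ERN1 averaged under 10 CPM and were not ranked.

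**Figure D5:**
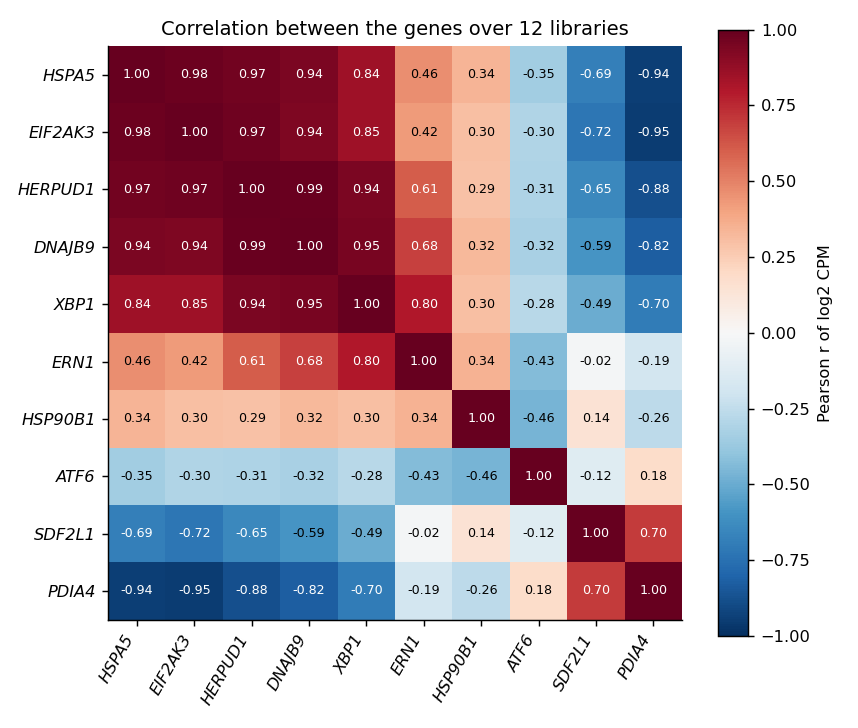
Pearson's r of log2 CPM between each pair of the 10 genes over 12 libraries, red for positive and blue for negative values. Pairs among HSPA5, EIF2AK3, HERPUD1, DNAJB9 and XBP1, the members higher both with EC359 and with the combination, range from 0.844 to 0.988. PDIA4 is negative against each of these genes.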

How the data were processed

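Per the file headers, the authors counted paired reads of stranded libraries on the exons of each gene of an hg38 annotation with featureCounts 1.5.0-p1, at a minimum mapping quality of 2, and divided reads with several placements or overlapping genes by fractions. The deposited values are therefore estimated counts (expected counts), without normalization. The submitters' processing notes also name HISAT2 and bcl2fastq, without versions. Between 12.4% and 15.1% of the values of a library were not whole, and all were rounded before testing. A count of 0 allows up to 3 counts, or 0.0883 to 0.127 CPM, for counting error only.

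Genes were filtered with filterByExpr (minimum count 10, minimum total 15) in edgeR 4.0.16 (R 4.3.3), which left 14865 of 26485. TMM scaling and a robust quasi-likelihood fit over all 12 libraries, with 1 mean per group, gave 7 contrasts, with Benjamini-Hochberg adjustment over all genes and a threshold of 0.05. The biological coefficient of variation was 3.95%. The fit was tested on simulated data with known changes. The members and lists were chosen with earlier results of these data known. Named list genes were taken from the 2 largest rises and falls past the threshold, among genes that reach 10 CPM in either group on average. Not all of the genes that this rule selects are named. Gene coordinates are those of the deposited annotation. The alternatives were DESeq2 1.42.0, its size factors, total counts only, other filters, a block for the replicate number, fits of only the compared groups or without each library, and a minimum of 2-fold.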

Additional observations from a re-analysis of the deposited data

Results flagged for a closer look

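For 5 members the effect of the combination differed from the sum of the log2 effects of EC359 and trametinib by the interaction test in edgeR. Of all genes tested, 14.4% were called above 0 and 15.9% below 0 by the same test. The interaction was 0.46 for EIF2AK3, 0.12 for HSPA5 and 0.14 for HERPUD1, where the combination exceeded the sum. It was -0.19 for XBP1 and -0.17 for PDIA4, where the combination lay below the sum. The size of the effect was small for HSPA5, HERPUD1, XBP1 and PDIA4, and that of HERPUD1 was lost under several alternatives. The groups have 3 libraries each, so single libraries were not tested for standing apart.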

How the results depend on the processing

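Of the counts of members, changes came mainly from total counts in place of TMM and from a minimum of 2-fold. With total counts alone, the members called lower numbered 4 for EC359 against control, 5 for the combination against control, 4 for EC359 against trametinib and 4 for the interaction, and 2 members were higher with trametinib. Of all 14865 genes tested, 6677, 6811, 7213 and 2842 were lower in these 4 comparisons under the same scaling, and 2484 were higher with trametinib. The genes called between EC359 and trametinib became 2998 higher and 7213 lower. The single member higher with trametinib (ATF6) was lost without the filter on low counts and with DESeq2 (0 members each), and 0 to 1 members were higher when single libraries were left out. Without trametinib replicate 2, the 1 member was EIF2AK3 (edgeR adjusted p = 0.0401) and not ATF6 (0.151). In the combination against trametinib, 1 member was lower with DESeq2, and 1 to 3 members were lower without single libraries, against 3 with all libraries.

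At a minimum of 2-fold, EC359 against control had 623 genes higher and 415 lower, with 0 members lower. Trametinib against control had 71 and 142 genes and 0 members, and the combination against control had 1081 and 872 genes, with 3 members higher and 0 lower. The combination differed from EC359 in 251 and 231 genes, with 0 members higher and 1 lower, and from trametinib in 909 and 814 genes, with 3 members higher and 0 lower. EC359 differed from trametinib in 699 and 505 genes, with 0 members lower, and the interaction reached that size in 131 and 102 genes and 0 members.

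Differences that changed sign were close to 0 after TMM. For HSP90B1 with EC359 against control, the log2 difference was 0.0039 with DESeq2 size factors, 0.0006 without the filter and 0.0041 with DESeq2, and -0.0095 to 0.0150 without single libraries. For the combination against control, HSP90B1 was at -0.1365 with total counts (edgeR adjusted p = 3.1e-07), -0.0012 without the filter and -0.0068 to 0.0217 without single libraries. Against EC359 it was at -0.0001 with total counts, -0.0018 without the filter and -0.0078 to 0.0206 without single libraries. With total counts it was at -0.1348 for the combination against trametinib and -0.1347 for EC359 against trametinib. ATF6 was at -0.0918 with EC359 and -0.1260 with the combination with total counts, and -0.0055 to 0.0265 without single libraries in the combination. With trametinib, HSPA5 was at 0.0142 with total counts, and HERPUD1 at -0.0021 when only the groups compared were fitted and -0.0303 to 0.0389 without single libraries. Without single libraries, DNAJB9 ranged over -0.0733 to 0.0935 for the combination against EC359 and SDF2L1 over -0.0616 to 0.0424 for EC359 against trametinib. The cause of these changes was not tested, other than the shift of all genes under total counts.

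The rises of XBP1, EIF2AK3, DNAJB9 and HERPUD1 with EC359 and with the combination kept their direction under every alternative run. So did the falls of PDIA4 and SDF2L1 in both. All of these passed the test in each alternative, except that XBP1, PDIA4 and SDF2L1 did not reach the minimum of 2-fold. With the replicate number as a block, 4564 genes were higher and 4460 lower with EC359 against control, and the block changed no count of members. Libraries with the same number did not deviate together (r from -0.07 to 0.03 over 18 pairs), so the numbers were not taken to pair the libraries. DNAJB9 and ERN1 have the fewest counts among the members, which limits the precision of their differences.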
